A study of Mus musculus with 20 samples.

Results

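The genes described here are 9 transcription factors and 1 filament protein tied to epithelial-to-mesenchymal transition (EMT): Snai1, Snai2, Snai3, Zeb1, Zeb2, Twist1, Twist2, Prrx1, Grhl2 and Vim. They are a list of gene names, and their values were not part of the rule, though earlier results of these data were known. All 10 were found among the 19940 genes of the deposited table. 7 of them reached a normalized read count of 10 in at least 5 libraries, which is the filter for testing, and 14630 genes in all did so. Snai3, Twist1 and Twist2 did not, and their read counts are given apart. The 10 genes were measured in 20 libraries of whole kidney from male mice, 5 libraries in each of 4 groups. The groups were G3 Tert-/- at 47 weeks (old), Tert+/+ at 47 weeks, G3 Tert-/- at 7 weeks (young) and Tert+/+ at 7 weeks. The catalytic subunit of telomerase is the product of Tert, and G3 mice are the third generation without it, so that telomeres have shortened over successive breedings. The labels name no treatment or other allele for any group, and they do not name the strain. The title of the series asks whether short telomeres trigger EMT programmes, and these genes are the core of such programmes.

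In EMT an epithelial cell loses its junctions and polarity and takes on features of a mesenchymal cell. The Snail proteins (Snai1, Snai2) and the Zeb proteins are zinc-finger repressors that bind E-box sequences in the promoters of epithelial genes such as Cdh1, the gene of E-cadherin. Twist1 and Twist2 are basic helix-loop-helix factors and Prrx1 is a homeodomain factor, and all are used by embryonic mesenchyme. Vimentin, encoded by Vim, is the intermediate filament protein of mesenchymal cells, and in a healthy kidney it is found mainly in podocytes, vessels and interstitial cells. Grhl2 works in the other direction: it is a grainyhead-like factor of the collecting duct and other distal epithelia that keeps Cdh1 and tight junction genes active. In whole tissue, a lower value may come from fewer cells of a type or from less RNA per cell, and these cannot be told apart.

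Libraries held 7161690 to 9757594 reads assigned to genes. The 9 listed proximal tubule markers together had 52838 to 83091 normalized counts per library, as fits the labelled organ. Tert had 5.11 to 8.31 in old G3 Tert-/- kidneys and 7.25 to 16.9 in old Tert+/+ kidneys, and 0.979 to 5.65 in young G3 Tert-/- kidneys and 4.21 to 15.7 in young Tert+/+ kidneys. Reads from the 3′ end may come from sequence that the deletion left in place, so Tert checks the genotype labels little. 2 libraries stood apart from the other 18, namely Tert+/+ young replicate 1 and Tert+/+ old replicate 4. Their scores on the first principal component were 67.5 and 56.6, against -39.4 to 21.0 in the others. In both, Zeb1 and Zeb2 were the highest and Snai1 the lowest of their group of 5. The part of these libraries in the results was not tested beyond leaving them out.

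None of the 7 tested genes passed the test for a change with genotype or with age. By limma, with p adjusted by Benjamini-Hochberg over the 14630 tested genes and a threshold of 0.05, the count was 0 of 7 in each of the 5 comparisons. The share of all tested genes that passed was 0.0957% for G3 Tert-/- against Tert+/+ at 47 weeks (14 genes) and 0% for the same at 7 weeks. It was 2.24% for 47 against 7 weeks in G3 Tert-/- (327 genes) and 0.649% for 47 against 7 weeks in Tert+/+ (95 genes). For the difference of the 2 genotype effects, the interaction, it was 0.00684% (1 gene). With so few genes passing, 0 of 7 is near the background in every comparison. edgeR and DESeq2, run on whole reads recovered from the table, also called 0 of 7 each time.

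At an unadjusted p under 0.05, 1 of the 7 genes was listed at 47 weeks (Grhl2, against 6.58% of all tested genes), and 1 at 7 weeks (Zeb1, against 10.7%). In the age comparison of G3 Tert-/- kidneys it was 2 (Zeb1 and Grhl2, against 14.9%). It was 0 in Tert+/+ kidneys (10.6% of all genes) and 0 for the interaction (6.22%). The median log2 fold change of the 7 genes was -0.01 at 47 weeks and 0.21 at 7 weeks for genotype, and 0.16 in G3 Tert-/- and 0.10 in Tert+/+ kidneys for age. The median of all tested genes lay between 0.00 and 0.01 in these comparisons.

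**Figure D1:**
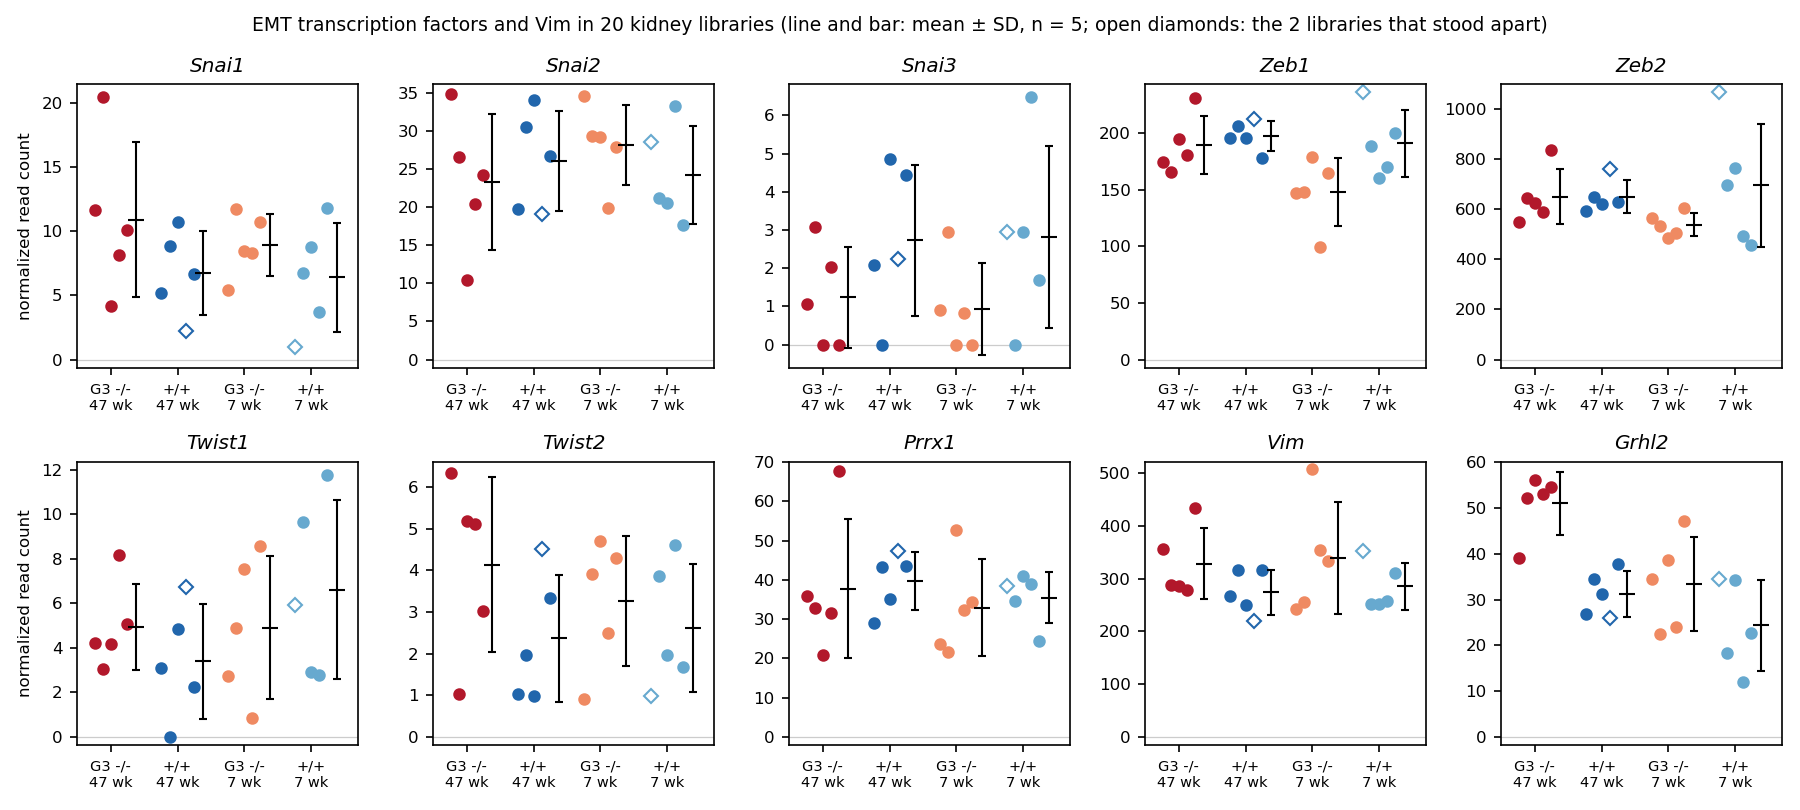
Normalized read count of each of the 10 genes (y axes, linear, 1 panel per gene with its own range) in every library, by group; dots are libraries, lines and bars are mean ± SD (n = 5), and open diamonds are the 2 libraries that stood apart. For Grhl2 the old G3 Tert-/- libraries (39.1 to 56.1) lie above the old Tert+/+ libraries (25.9 to 37.8), while in the other panels these groups overlap.

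**Figure D2:**
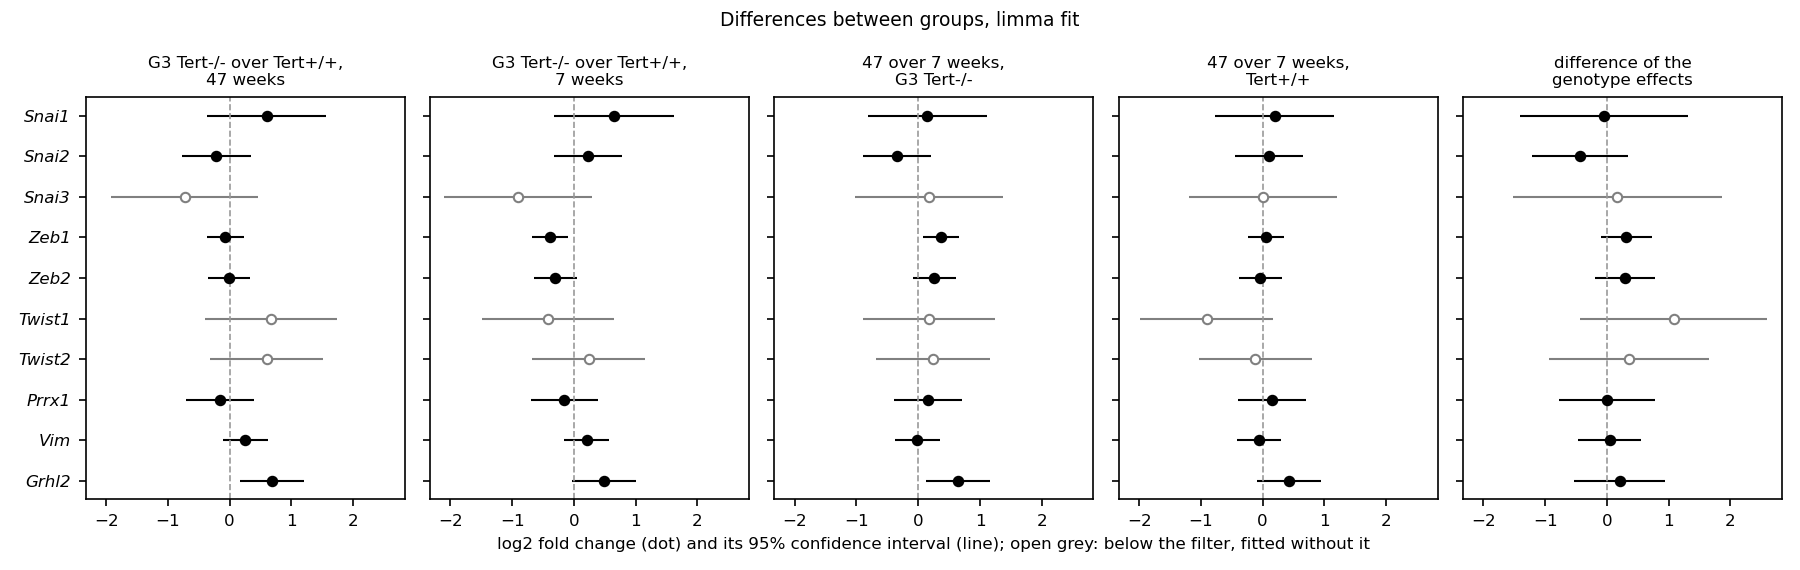
Log2 fold change (dot) with its 95% confidence interval (line) for the 10 genes in the 5 comparisons, from limma on log2(normalized count + 1); filled black dots are the 7 tested genes, and open grey dots are Snai3, Twist1 and Twist2 from a fit without the filter. The intervals leave out 0 for Grhl2 at 47 weeks, for Zeb1 at 7 weeks and for both in the age comparison of G3 Tert-/- kidneys, and no adjusted p passed.

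Grhl2 (chromosome 15, 37233036 to 37363569, plus strand, GRCm38), the keeper of epithelial state among the 10, showed the clearest separation of genotypes. Its normalized counts were 39.1, 52.2, 56.1, 53.1 and 54.6 in old G3 Tert-/- kidneys, against 26.9, 34.5, 31.2, 25.9 and 37.8 in old Tert+/+ kidneys. In young kidneys they were 34.5, 22.5, 38.6, 24.1 and 47.2 with G3 Tert-/-, against 34.4, 18.3, 34.2, 12 and 22.7 with Tert+/+. Every old G3 Tert-/- library lay above every old Tert+/+ library, whereas the young groups overlapped widely.

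The means were 51.0 ± 6.83 in old G3 Tert-/- and 31.3 ± 5.02 in old Tert+/+ kidneys (SD, n = 5 each), a fold of 1.61 on the scale of log2(normalized count + 1), with a 95% interval of 1.13 to 2.32. The log2 fold change was 0.69 (SE 0.25), and the adjusted p from limma was 0.584. Grhl2 was the only 1 of the 7 genes whose groups did not overlap at 47 weeks, where 2.31% of all tested genes did not overlap, 0.875% with the G3 Tert-/- group higher. In the other comparisons 0 of the 7 genes had groups that did not overlap, against 1.4% of all tested genes for genotype at 7 weeks, 4.6% for age in G3 Tert-/- and 2.53% for age in Tert+/+. At 7 weeks the means were 33.4 ± 10.3 in G3 Tert-/- and 24.3 ± 9.88 in Tert+/+ kidneys, with a log2 fold change of 0.48 (limma adjusted p = 0.483), and without young Tert+/+ replicate 4, the library at 12, it was 0.27.

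Old kidneys also had the higher mean of Grhl2 in each genotype. The log2 fold change for 47 against 7 weeks was 0.64 in G3 Tert-/- (limma adjusted p = 0.214) and 0.43 in Tert+/+ kidneys (adjusted p = 0.562, and a log2 fold change of 0.22 without young replicate 4). The genotype effects at the 2 ages differed by 0.21 (SE 0.36, limma adjusted p = 0.936), so nothing shows the effect to be particular to an age. From high to low the groups ran old G3 Tert-/-, young G3 Tert-/-, old Tert+/+ and young Tert+/+, and no pair of neighbours that was tested passed the threshold. Reads per library were 37 to 54 in old G3 Tert-/- and 23 to 35 in old Tert+/+ kidneys. Over all 4 groups, the SD within groups was 0.41 log2 units, against 0.24 from counting alone at the mean read count. The chi-square was 2.28 per degree of freedom, so counting error was a part of the spread and not all of it. As a percent of the mean, the SD was 13.4 in old G3 Tert-/- and 16.1 in old Tert+/+ kidneys. In young kidneys it was 30.8 with G3 Tert-/- and 40.6 with Tert+/+.

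Cdh1, an epithelial gene that Grhl2 is known to support, had a log2 fold change of 0.02 (SE 0.14, limma adjusted p = 0.988) at 47 weeks for genotype. Its normalized counts were 1684 to 1906 in old G3 Tert-/- and 1696 to 1921 in old Tert+/+ kidneys. The markers of the collecting duct, where Grhl2 is best known, summed to 3207 to 3994 in old G3 Tert-/- and 3030 to 3686 in old Tert+/+ kidneys. None of the 9 markers passed for genotype or age. At 47 weeks 8 of 9 had a positive log2 fold change for genotype, with a median of 0.11, and none was at 0 in every library. Of all tested genes, 52.1% had a positive value in that comparison. After subtraction of group means, Grhl2 had an r of 0.274 with the collecting duct score over 20 libraries. Spearman's rho was 0.2, and r was 0.21 without the 2 libraries farthest from the median score. The part of these markers in the Grhl2 values was not tested.

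Zeb1 (chromosome 18, 5591860 to 5775467, plus strand) was lowest in young G3 Tert-/- kidneys. Normalized counts there were 147, 148, 179, 99.7 and 165, against 236, 189, 160, 170 and 200 in young Tert+/+ kidneys. Old kidneys had 174, 166, 195, 181 and 231 with G3 Tert-/-, against 196, 206, 196, 213 and 178 with Tert+/+. The groups overlapped at both ages, and at 7 weeks the Tert+/+ libraries at 160 and 170 lay within the range of the G3 Tert-/- libraries.

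For Zeb1 the log2 fold change at 7 weeks was -0.38 (SE 0.14), a fold of 0.767 with a 95% interval of 0.625 to 0.940, and the limma adjusted p was 0.435. At 47 weeks it was -0.07 (adjusted p = 0.951). The 2 genotype effects differed by 0.32 (SE 0.20, limma adjusted p = 0.826). Between old and young kidneys the log2 fold change was 0.37 in G3 Tert-/- (limma adjusted p = 0.195) and 0.06 in Tert+/+ (adjusted p = 0.928). The comparison at 7 weeks and the age comparison in G3 Tert-/- share the same 5 young G3 Tert-/- libraries, so these are not separate observations. Without both libraries that stood apart, the log2 fold change at 7 weeks was -0.30 (adjusted p = 0.552). Without young G3 Tert-/- replicate 4, the library at 99.7, it was -0.25, and the age value in G3 Tert-/- was 0.24 (adjusted p = 0.416).

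Zeb2 (chromosome 2, 44983632 to 45117395, minus strand), its close relative, is also expressed by macrophages. Young G3 Tert-/- kidneys had 566, 535, 486, 504 and 603, against 1068, 696, 766, 493 and 458 in young Tert+/+ kidneys. Old G3 Tert-/- kidneys had 550, 647, 626, 590 and 836, against 592, 648, 619, 762 and 630 in old Tert+/+ kidneys. The value of 1068 belongs to a library that stood apart, and the young Tert+/+ group spanned the whole range of the young G3 Tert-/- group.

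The log2 fold change of Zeb2 was -0.30 at 7 weeks (limma adjusted p = 0.493) and -0.01 at 47 weeks (adjusted p = 0.996). Without both libraries that stood apart these were -0.13 and 0.05. By age it was 0.26 in G3 Tert-/- (limma adjusted p = 0.506) and -0.03 in Tert+/+ kidneys (adjusted p = 0.964), and the genotype effects differed by 0.29 (adjusted p = 0.861). Within groups the SD was 0.29 log2 units for Zeb2 and 0.22 for Zeb1.

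Vim (chromosome 2, 13573927 to 13582826, plus strand) had 357, 288, 286, 278 and 434 in old G3 Tert-/- kidneys, against 266, 316, 250, 220 and 317 in old Tert+/+ kidneys. Young kidneys had 242, 255, 508, 354 and 334 with G3 Tert-/-, against 353, 253, 252, 257 and 311 with Tert+/+. The highest 2 values of the 20 were both from G3 Tert-/- libraries, young replicate 3 and old replicate 5, and the groups overlapped at both ages.

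Mean Vim was 328 ± 67.3 in old G3 Tert-/- and 274 ± 42.5 in old Tert+/+ kidneys, and 339 ± 106 in young G3 Tert-/- and 285 ± 45.4 in young Tert+/+ kidneys (SD, n = 5 each). The fold was 1.19 at 47 weeks (95% interval 0.927 to 1.53, limma adjusted p = 0.853). At 7 weeks it was 1.15 (0.898 to 1.48, adjusted p = 0.644). The upper bounds, 1.53 and 1.48, are the largest genotype differences of Vim that these intervals allow. With age the log2 fold change was -0.01 in G3 Tert-/- (limma adjusted p = 0.984) and -0.06 in Tert+/+ kidneys (adjusted p = 0.940).

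Between libraries, Vim varied along with markers of adipocytes and of urothelium. The list of 11 adipocyte markers (among them Adipoq, Plin1 and Ucp1) was made after the values of the genes most like Vim had been seen. All 11 were in the table and none was at 0 in every library. Their summed normalized counts ran from 289 to 5300 in old G3 Tert-/- and 217 to 1111 in old Tert+/+ kidneys. In young kidneys they ran from 298 to 13335 with G3 Tert-/- and from 177 to 4554 with Tert+/+. The highest sum was that of young G3 Tert-/- replicate 3 and the next that of old G3 Tert-/- replicate 5, which are the 2 libraries highest in Vim.

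After subtraction of group means, Pearson's r between log2 Vim and the adipocyte score was 0.707 over the 20 libraries (Spearman's rho 0.683), and 0.663 without the 2 libraries farthest from the median score. With the score of urothelium markers, such as the uroplakins, which rests on the 7 tested of 8, it was 0.684 (rho 0.603, and 0.606 without the 2 farthest). All 8 were in the table, none was at 0 in every library, and their sums were 157 to 434 in old G3 Tert-/- and 52.8 to 226 in old Tert+/+ kidneys, and 14.5 to 301 in young G3 Tert-/- and 20.2 to 171 in young Tert+/+ kidneys. These are descriptions, since the points share their library. The adipocyte list was made after seeing the genes most like Vim, so its r with Vim is in part owed to that choice. Without the 3 libraries highest in adipocyte markers (young G3 Tert-/- replicate 3, old G3 Tert-/- replicate 5 and young Tert+/+ replicate 5), an alternative chosen after seeing the data, the log2 fold change of Vim was 0.15 at 47 weeks and 0.08 at 7 weeks, against 0.25 and 0.21 with all libraries. The first 2 of these are also the libraries highest in Vim, so the G3 Tert-/- means fall without them whatever their adipocyte markers. The part of these markers in the Vim values was not tested. None of the 11 adipocyte or 7 tested urothelium markers passed in any comparison by limma. For genotype, 9 of 11 adipocyte markers had positive values at 47 weeks (median log2 fold change 0.77) and 10 of 11 at 7 weeks (median 1.20). Of the urothelium markers it was 7 of 7 at 47 weeks (median 0.74) and 5 of 7 at 7 weeks (median 0.81). Of all tested genes, 52.1% had positive values at 47 weeks and 50.2% at 7 weeks. Markers of 1 list may move together, so such counts are not separate observations.

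**Figure D3:**
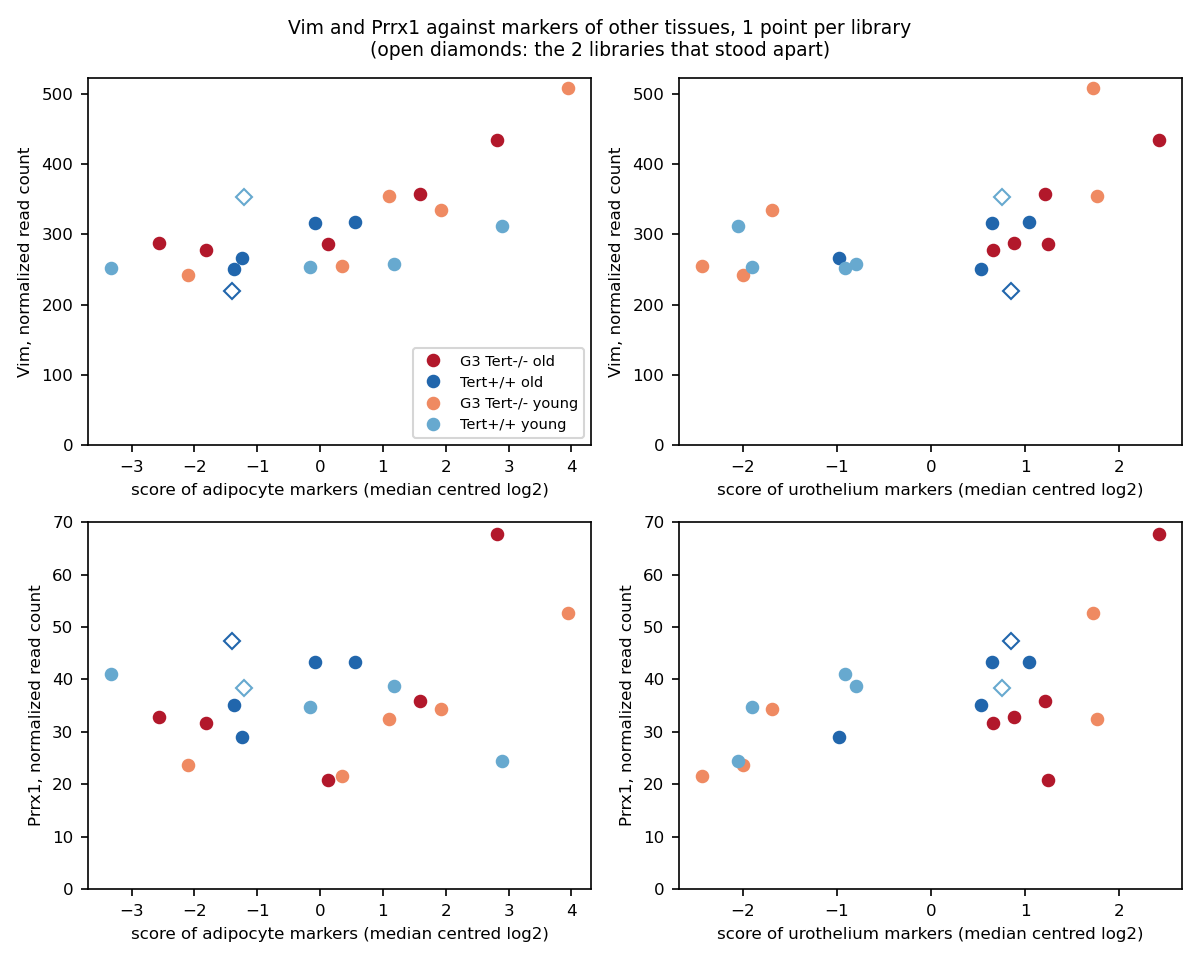
Normalized read counts of Vim (top) and Prrx1 (bottom) against the score of adipocyte markers (left) and of urothelium markers (right), the median of centred log2 values over the list, with 1 point per library coloured by group and open diamonds for the 2 libraries that stood apart. Vim is highest in the 2 G3 Tert-/- libraries with 508 and 434 counts, whose adipocyte scores are 3.95 and 2.82.

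Prrx1 (chromosome 1, 163245119 to 163313710, minus strand), a homeodomain factor of mesenchyme, had 35.9, 32.7, 20.8, 31.7 and 67.7 in old G3 Tert-/- kidneys, against 29.0, 43.3, 35.1, 47.3 and 43.4 in old Tert+/+ kidneys. Young kidneys had 23.6, 21.5, 52.7, 32.4 and 34.3 with G3 Tert-/-, against 38.4, 34.7, 41.1, 38.8 and 24.4 with Tert+/+. The highest library of each G3 Tert-/- group was also that group's highest in Vim, and all groups overlapped.

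Log2 fold changes of Prrx1 were -0.15 at 47 weeks and -0.15 at 7 weeks for genotype, and 0.16 in G3 Tert-/- and 0.16 in Tert+/+ kidneys for age, with limma adjusted p from 0.839 to 0.943. Across libraries, after subtraction of group means, Prrx1 followed the urothelium score with r of 0.662 (rho 0.722, and 0.653 without the 2 farthest), and Vim with r of 0.637. Its r with the adipocyte score was 0.364. 2 annotated genes of the table, Gm26523 and Gm37644, overlap Prrx1 on its strand, so its count is uncertain.

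Snai1 (chromosome 2, 167538195 to 167542814, plus strand), the gene of Snail, is a low-count gene: 168 reads were assigned to it over all 20 libraries, and 7 libraries reached a normalized count of 10. Old G3 Tert-/- kidneys had 11.6, 20.5, 4.16, 8.17 and 10.1, against 5.18, 8.87, 10.7, 2.25 and 6.68 in old Tert+/+ kidneys. Young G3 Tert-/- kidneys had 5.45, 11.7, 8.48, 8.30 and 10.7, against 0.984, 6.75, 8.80, 3.7 and 11.8 in young Tert+/+ kidneys. The highest value of the 20 was in an old G3 Tert-/- library, and the lowest was 1 read in a Tert+/+ library that stood apart.

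The fold of Snai1 was 1.51 at 47 weeks (95% interval 0.775 to 2.96, limma adjusted p = 0.864) and 1.56 at 7 weeks (0.801 to 3.06, adjusted p = 0.589). The intervals reach from a lower value in G3 Tert-/- kidneys to about 3 times the Tert+/+ value. Without both libraries that stood apart, the log2 fold change was 0.32 at 47 weeks and 0.24 at 7 weeks, against 0.60 and 0.65 with all 20. By age it was 0.15 in G3 Tert-/- (limma adjusted p = 0.926) and 0.20 in Tert+/+ kidneys (adjusted p = 0.927).

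The 250 bases before the start of Snai1 are shown because Snail and Zeb proteins bind the E-box CACCTG and its reverse complement CAGGTG, and this region holds 1. The sequence is from RefSeq on GRCm38.p6 (chr2:167537945-167538194, plus strand, 5′ to 3′), and capitals mark the E-box, whose first base lies 126 bases before the start.
Snai1: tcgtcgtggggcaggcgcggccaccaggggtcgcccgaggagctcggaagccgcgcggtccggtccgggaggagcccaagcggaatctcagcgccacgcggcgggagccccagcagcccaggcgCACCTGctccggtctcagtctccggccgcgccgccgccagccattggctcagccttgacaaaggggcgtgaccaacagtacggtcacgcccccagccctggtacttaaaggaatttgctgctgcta
Both strands were searched. Of 32851 mouse windows of the same length, 17.2% hold CACCTG or CAGGTG, and 66.2% hold the wider motif CANNTG, of which it is 1 form. Windows outside the gene's own annotated span were searched for 4 of the genes, Snai1, Zeb2, Twist1 and Twist2, and only that of Snai1 holds the letters. Overlap with other annotated genes was not checked, and the background windows were not filtered for overlap. Zeb1 was left out of this search for a reason other than such overlap, so nothing is said of its window. A match is a description and not a site.

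Snai2 (chromosome 16, 14705852 to 14709385, plus strand), the gene of Slug, averaged 23.3 ± 8.95 in old G3 Tert-/- and 26.0 ± 6.58 in old Tert+/+ kidneys. In young kidneys it averaged 28.2 ± 5.26 with G3 Tert-/- and 24.2 ± 6.44 with Tert+/+ (SD, n = 5 each). The log2 fold change was -0.21 at 47 weeks and 0.22 at 7 weeks for genotype, and -0.34 in G3 Tert-/- and 0.10 in Tert+/+ kidneys for age. Leaving out 1 library moved the age value in G3 Tert-/- to between -0.50 and -0.088, the nearest to 0 without old replicate 3, and the genotype value at 7 weeks to between 0.12 and 0.34, the lowest without young Tert+/+ replicate 5. Limma adjusted p ran from 0.609 to 0.934, and all groups overlapped. Its r with the macrophage and leukocyte score was 0.71 over 20 libraries after subtraction of group means (Spearman's rho 0.516), and r was 0.321 without the 2 libraries farthest from the median score.

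Snai3, Twist1 and Twist2 were near the limit of detection. Snai3 (chromosome 8, 122454208 to 122460733, minus strand), the least studied Snail gene, had 39 reads over all libraries and was at 0 in 6. Its groups held 6 reads in old G3 Tert-/- and 13 in old Tert+/+ kidneys, and 5 in young G3 Tert-/- and 15 in young Tert+/+ kidneys. A count of 0 allows up to 3 reads, which is 2.49 to 3.38 normalized counts depending on the library and covers counting error only. The fewer reads in G3 Tert-/- at both ages gave log2 fold changes of -0.73 (SE 0.58) and -0.90 (SE 0.58) in a fit without the filter, with limma adjusted p over all 19940 genes of 0.882 and 0.594.

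Twist1 (chromosome 12, 33957671 to 33959829, plus strand) had 101 reads, 24 in old G3 Tert-/- and 16 in old Tert+/+ kidneys, and 25 in young G3 Tert-/- and 36 in young Tert+/+ kidneys. Its genotype log2 fold change was 0.67 at 47 weeks (limma adjusted p = 0.876) and -0.42 at 7 weeks (adjusted p = 0.810). Twist2 (chromosome 1, 91801461 to 91848028, plus strand) had 62 reads, 20 in old G3 Tert-/- and 11 in old Tert+/+ kidneys, and 17 in young G3 Tert-/- and 14 in young Tert+/+ kidneys. Its genotype log2 fold change was 0.60 at 47 weeks (limma adjusted p = 0.871) and 0.24 at 7 weeks (adjusted p = 0.881). Gm29101 overlaps Twist2 on the same strand, so its reads are uncertain.

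By age, the log2 fold changes of these 3 genes were 0.18, 0.18 and 0.24 in G3 Tert-/- kidneys for Snai3, Twist1 and Twist2, and 0.01, -0.91 and -0.12 in Tert+/+ kidneys. None passed by limma or edgeR in a fit without the filter. In that fit 0.0652% of genes passed at 47 weeks, 0% at 7 weeks, 1.54% with age in G3 Tert-/-, 0.476% with age in Tert+/+ and 0.00502% for the interaction. For Twist2 the spread within groups was no larger than counting gives, with a chi-square of 0.946 per degree of freedom.

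The other genes of the programme were read from lists. Of 18 tested EMT regulators outside the 10 genes (such as Tcf4, Id1, Sox9, Runx1, Wwtr1 and Yap1), 0 passed by limma in any comparison. Their lowest adjusted p was 0.0543, with age in G3 Tert-/- kidneys, where their median log2 fold change was 0.17. 22 tested keepers of epithelial state, among them Ovol1, Esrp1, Cdh1 and Epcam, gave 0 as well, with a lowest adjusted p of 0.0833. 13 genes of the TGF-beta pathway, the best known inducer of EMT in the kidney, gave 0 too, with a lowest adjusted p of 0.369. The median log2 fold change for genotype at 47 weeks was 0.12, 0.02 and 0.00 for these lists in the order given, and at 7 weeks 0.00, 0.00 and -0.10, beside medians of all tested genes of 0.01 and 0.00.

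The list of mesenchymal and filament genes held calls for age. 4 of its 19 tested members fell with age in G3 Tert-/- and 4 in Tert+/+ kidneys, none was higher, and 0 passed for genotype at either age. Of all tested genes, 2.24% passed with age in G3 Tert-/- and 0.649% in Tert+/+ kidneys, in either direction. In both genotypes the 4 were Col1a1 and Col3a1, which encode fibrillar collagens, Sparc, a collagen-binding matrix protein, and Fn1, fibronectin. Col1a1 averaged 144 ± 14.5 in old and 532 ± 203 in young G3 Tert-/- kidneys, and 168 ± 33.8 in old and 376 ± 46.4 in young Tert+/+ kidneys (SD, n = 5 each). Its log2 fold change was -1.80 in G3 Tert-/- (limma adjusted p = 2.07e-06) and -1.17 in Tert+/+ (adjusted p = 0.00137). The difference of these changes did not pass (limma adjusted p = 0.774).

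Col3a1 fell by 1.69 on the log2 scale in G3 Tert-/- (limma adjusted p = 0.000209) and by 1.48 in Tert+/+ kidneys (adjusted p = 0.00189). Sparc fell by 1.16 in G3 Tert-/- (limma adjusted p = 9.77e-06) and by 0.90 in Tert+/+ kidneys (adjusted p = 0.000859). Log2 fold changes of Fn1 were -1.003 in G3 Tert-/- (limma adjusted p = 0.000608) and -0.99 in Tert+/+ kidneys (adjusted p = 0.00137). All 4 also passed in each of the 30 alternatives run for each comparison. In the same comparisons Vim had log2 fold changes of -0.01 and -0.06 and Prrx1 of 0.16 and 0.16. Summed fibroblast and pericyte markers were 2336 to 3110 in old and 2549 to 3636 in young G3 Tert-/- kidneys, and 2366 to 2607 in old and 2535 to 3037 in young Tert+/+ kidneys. None of the 11 tested passed, and their part in the matrix genes was not tested.

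**Figure D4:**
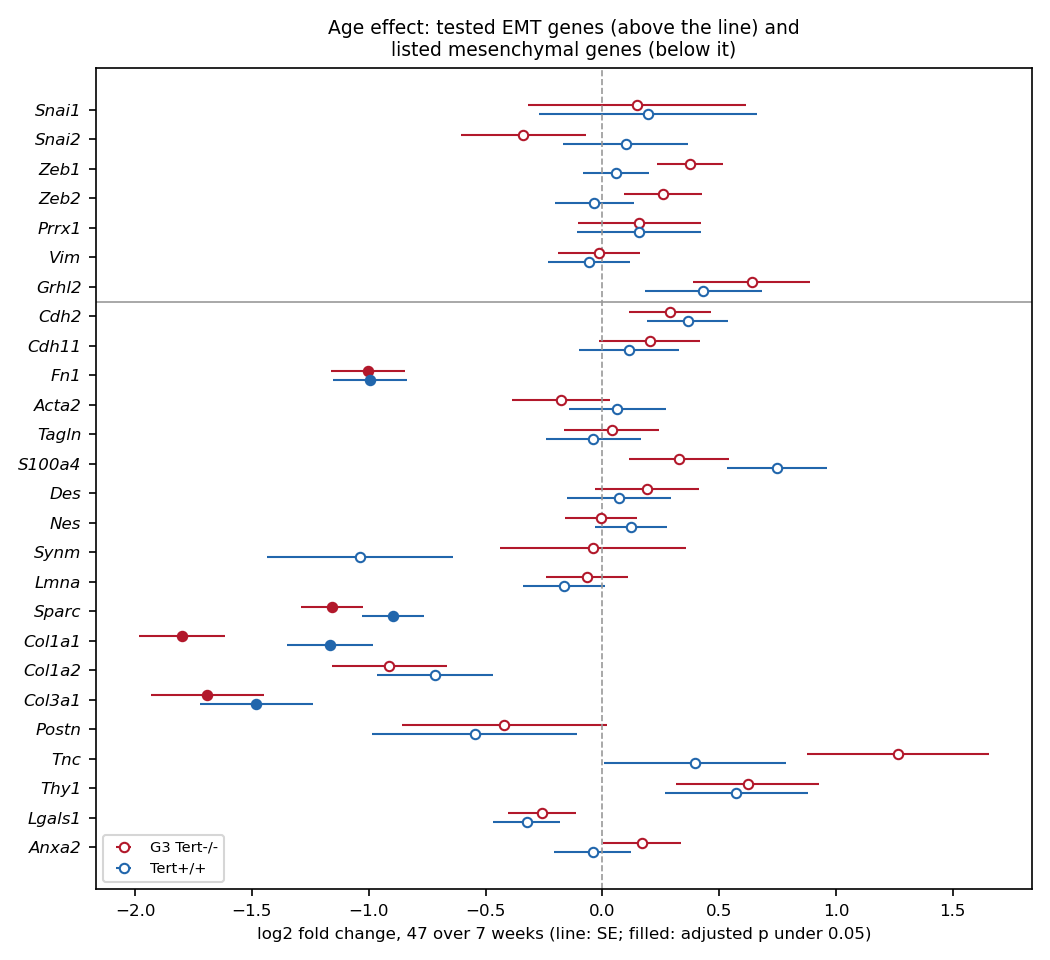
Log2 fold change at 47 over 7 weeks (x axis) with its SE (line) in G3 Tert-/- (red) and Tert+/+ (blue) for the 7 tested EMT genes, above the grey line, and the 19 tested mesenchymal genes of the list, below it; filled dots passed at an adjusted p under 0.05. Only Fn1, Sparc, Col1a1 and Col3a1 have filled dots, from -1.80 to -0.90, while all 7 EMT genes have open dots between -0.34 and 0.64.

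Among markers of other cells, 2 of 9 proximal tubule genes fell with age in G3 Tert-/- kidneys, the glucose transporter gene Slc5a2 (log2 fold change -0.58, limma adjusted p = 0.0338) and the organic anion transporter gene Slc22a6 (-0.69, adjusted p = 0.0399). These 2 calls were lost in 9 and 15 of 30 alternatives. Of all tested genes, 2.24% passed with age in G3 Tert-/- kidneys. Of 7 hepatocyte genes Ttr fell (-1.52, limma adjusted p = 0.00513) and Serpina1a rose (1.93, adjusted p = 0.00917) in that comparison, the second with an uncertain count since it has near-identical copies. Endothelial, podocyte, macrophage and collecting duct markers gave 0 calls in all 5 comparisons by limma. All 13 macrophage and leukocyte markers had positive age values in G3 Tert-/- kidneys (median log2 fold change 0.45), and their lowest adjusted p was 0.0529. In Tert+/+ kidneys 12 of 13 were positive (median 0.31, lowest adjusted p = 0.273). Of all tested genes, 50.5% had positive age values in G3 Tert-/- and 50.7% in Tert+/+ kidneys. Markers of 1 list may move together, so such counts are not separate observations. Their summed counts were 2126 to 3201 in old and 1565 to 2706 in young G3 Tert-/- kidneys, and 2211 to 3234 in old and 1610 to 2843 in young Tert+/+ kidneys. Zeb2, which macrophages express, had an r of 0.0248 with the score of these markers after subtraction of group means. Spearman's rho was 0.0842, and r was 0.187 without the 2 libraries farthest from the median score. The part of macrophages in the Zeb2 values was not tested.

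The genes most like each of the 7, by Pearson's r over 20 libraries after subtraction of group means and among 12493 named tested genes, differed from gene to gene. For Vim they were Hcar1 (r of 0.844), Slc36a2 (0.833) and Cidea (0.822), which are genes known from brown or white fat. For Prrx1 they were Pygl (0.789), the uroplakin gene Upk3a (0.754) and Trmu (0.753). For Grhl2, C1galt1 (0.881) and Lrp6 (0.874) are given. Zeb1 was most like Gsk3b (0.888), Sfswap (0.871) and Crkl (0.849), and Zeb2 most like Psme1 (0.929), Phkg2 (0.870) and Tbc1d16 (0.870). Snai1 was most like Gon7 (0.862), Foxi1 (0.830) and Atg4c (0.826), and Snai2 most like Arhgap30 (0.775), Tor3a (0.750) and Wdpcp (0.739). Each was picked for the highest r among 12493 genes, so a high r is in part owed to the choice. The 2 libraries that stood apart were kept in. Among the 7 genes themselves the highest r were those of Vim with Prrx1 (0.637) and of Zeb2 with Grhl2 (0.547), and that of Snai1 with Zeb2 was the lowest (-0.449).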

How the data were processed

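RNA from 20 kidney libraries was sequenced from the 3′ end of polyadenylated transcripts on the sense strand (QuantSeq FWD), from 300 ng of RNA with quality scores of 5.0 to 7.5, per the labels' protocols. The deposited signal is a read count per gene that the authors divided by 1 size factor per library. This was read from the values, all whole multiples of 1 step per library (tolerance 1e-06). Build GRCm38 and TopHat2 2.0.10, HTSeq 0.6.1 and DESeq2 are named in the submitters' processing notes.

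Groups follow the labelled genotype and age. Replicates were numbered in the order listed, and no label says that libraries of a group come from separate mice, so p-values measure the spread between libraries, which may be technical. On log2(normalized count + 1), limma 3.58.1 (trend, R 4.3.3) fitted 1 model of 4 group means over genes with at least 10 in 5 libraries. All tests were two-sided, and p was adjusted by Benjamini-Hochberg over the 14630 tested genes. Folds are on that log scale and understate changes of low genes. Alternatives were other pseudocounts and filters, edgeR 4.0.16 and DESeq2 1.42.0 on recovered reads, quantile normalization, fits of 2 groups and left-out libraries. The fit was tested on simulated data.

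The 10 genes, the lists, the alternatives and the rule for named genes were chosen with earlier results of these data known. The rule names the 10 genes, up to 4 passing members of each list per comparison, and the 3 genes most like each tested gene, of which 1 is not reported here. List scores are medians of centred log2 values. Coordinates are from GENCODE M21. The intervals printed beside folds are 95% intervals from limma, and floors cover counting error only.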

Additional observations from a re-analysis of the deposited data

Results flagged for a closer look

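Each of the 10 genes was screened in each of 4 groups for a library far from the other 4, by the gap to its neighbour over the range of the group. In 40 such groups 1 was found, and chance alone gives about 1 in 20. Grhl2 in old G3 Tert-/- replicate 1 was 39.1 normalized counts, against 52.2 to 56.1 in the other 4 libraries, with a gap of 0.771 of the range. That lowest value still lay above the highest old Tert+/+ value of 37.8.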

How the results depend on the processing

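None of the 7 tested genes passed in any comparison under any of the alternatives, and the lowest adjusted p reached was 0.112 (Zeb1, age in G3 Tert-/-, without both libraries that stood apart). For genotype at 47 weeks the adjusted p of Grhl2 ran from 0.182, in a fit of the 2 groups only, to 0.849. Counts over all genes moved more: DESeq2 called 50, 13, 530, 211 and 8 genes for genotype at 47 and 7 weeks, age in G3 Tert-/- and in Tert+/+, and the interaction, and leaving out 1 library at a time gave 2 to 19, 0 to 2, 192 to 497, 56 to 125 and 0 to 2. The 2 calls were without old G3 Tert-/- replicate 2, the 192 without old G3 Tert-/- replicate 5, the 497 without young Tert+/+ replicate 1 and the 56 without old Tert+/+ replicate 2. Fits of the 2 groups only called 6, 0, 388 and 53, and those without both libraries that stood apart 15, 0, 661, 131 and 0. Without the 3 libraries highest in adipocyte markers, chosen after seeing the data, age in G3 Tert-/- gave 182 calls. Of 964 alternative log2 fold changes of the 10 genes, 35 changed sign, all of values that did not pass, and the cause was not tested. These values, and the lowest adjusted p above, include the interaction for Zeb1, Zeb2, Vim and Grhl2 only. Snai3, Twist1 and Twist2 had 1 alternative in each of the other comparisons. Zeb2 at 47 weeks (-0.01) was 0.00108 with DESeq2, 0.000820 with quantile normalization and 0.048 without both libraries that stood apart. Without both, Zeb2 with age in Tert+/+ was 0.079, Vim with age in Tert+/+ 0.097, the Vim interaction -0.11 and the Grhl2 interaction -0.000647. Without those 3 libraries, Vim with age in G3 Tert-/- was 0.039 and Snai2 with age in Tert+/+ -0.000153. With edgeR and no filter Snai3 with age in Tert+/+ was -0.045. Leaving out 1 library at a time, the ranges that crossed 0 were -0.38 to 0.036 for Snai2, -0.10 to 0.048 for Zeb2 and -0.38 to 0.030 for Prrx1 (genotype, 47 weeks). With age in G3 Tert-/- they were -0.10 to 0.41 for Snai1, -0.074 to 0.34 for Prrx1 and -0.12 to 0.15 for Vim. With age in Tert+/+ they were -0.21 to 0.48 for Snai1, -0.00315 to 0.22 for Snai2, -0.00115 to 0.14 for Zeb1, -0.17 to 0.14 for Zeb2 and -0.12 to 0.021 for Vim, and for the Vim interaction -0.063 to 0.20. No paired analysis was run, since the labels give no pairing of libraries between groups. Depth limits Snai1, Snai3, Twist1 and Twist2, with 168 reads or fewer over all libraries.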
